A study of Mus musculus with 4 samples.

Results

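The dual-specificity phosphatases that act on MAP kinases were followed in hippocampal RNA of mice after global cerebral ischemia (GCI). The members were the 9 symbols Dusp1, Dusp2, Dusp4, Dusp5, Dusp6, Dusp7, Dusp8, Dusp10 and Dusp14, out of 22609 gene symbols listed in each library. They were chosen by name, and all 9 passed the filter on low counts that kept 14527 genes. RNA-Seq was available from 4 libraries, 2 of FLOX+GCI and 2 of FBN-ARO-KO+GCI. FBN-ARO-KO mice carry a Cre recombinase driven by the CaMKIIα promoter, which is active in forebrain excitatory neurons, and a floxed Cyp19a1 gene, so that aromatase is lost from those neurons only and other cells keep the gene. FLOX mice are the controls without this deletion. All mice were age-matched ovariectomized adult females, and all underwent 20 min of occlusion of both common carotid arteries and 24 h of reperfusion, so that no library shows the levels before ischemia. It is not stated whether libraries of the same genotype are different animals, and the p-values then measure the spread between these libraries, which may be technical.

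MAP kinases (ERK, JNK and p38) are switched on when a threonine and a tyrosine in their activation loop are phosphorylated. The dual-specificity phosphatases remove both phosphates, and because several of their genes are themselves transcribed in response to MAP kinase or cAMP signaling, they close a negative feedback loop. DUSP1, DUSP2, DUSP4 and DUSP5 are inducible nuclear enzymes, of which DUSP5 is selective for ERK. DUSP6 and DUSP7 are cytoplasmic and selective for ERK, and Dusp6 mRNA is a common readout of ERK signaling. DUSP8 and DUSP10 prefer JNK and p38. DUSP14 is a small atypical member that lacks the kinase-binding domain of the others. In the hippocampus, Dusp1, Dusp5 and Dusp6 are known as genes that neuronal activity, seizures and ischemia induce.

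The promoters of 3 members held motifs of the stimulus-responsive transcription factors CREB and SRF, and they are shown here together with that of Dusp6, the member with the smallest p between genotypes. Each window holds the 250 bases before the transcription start in RefSeq (GRCm38.p6), 5′ to 3′ on the strand of the gene, printed only up to the first base that GENCODE M1 places in an exon of the gene. The window of Dusp8 lies between the starts of its transcripts in GENCODE M1, so that it is intronic in one and before the start of another. The same bases were found in mm9, the build of the deposited counts, at chr17:26645465-26645667 (minus strand), chr19:53603385-53603598 (plus strand), chr7:149281190-149281439 (minus strand) and chr10:98725615-98725864 (plus strand). Capitals mark the cAMP response element, TGACGTCA, in Dusp1 and Dusp8 and the CArG box, the core of the serum response element, in Dusp5.
Dusp1: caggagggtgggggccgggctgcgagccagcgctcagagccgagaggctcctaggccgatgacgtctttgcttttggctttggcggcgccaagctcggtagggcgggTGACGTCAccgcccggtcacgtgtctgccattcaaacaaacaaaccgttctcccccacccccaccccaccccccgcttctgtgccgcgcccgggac
Dusp5: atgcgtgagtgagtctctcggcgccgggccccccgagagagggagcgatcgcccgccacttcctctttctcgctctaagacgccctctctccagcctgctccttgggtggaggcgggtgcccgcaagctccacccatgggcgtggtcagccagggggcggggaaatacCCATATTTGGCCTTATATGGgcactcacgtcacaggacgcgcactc
Dusp8: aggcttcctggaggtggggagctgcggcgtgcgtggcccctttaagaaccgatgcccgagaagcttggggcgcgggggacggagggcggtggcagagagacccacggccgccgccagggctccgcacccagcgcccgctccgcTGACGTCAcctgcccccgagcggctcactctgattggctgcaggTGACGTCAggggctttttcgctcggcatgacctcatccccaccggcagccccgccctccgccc
Dusp6: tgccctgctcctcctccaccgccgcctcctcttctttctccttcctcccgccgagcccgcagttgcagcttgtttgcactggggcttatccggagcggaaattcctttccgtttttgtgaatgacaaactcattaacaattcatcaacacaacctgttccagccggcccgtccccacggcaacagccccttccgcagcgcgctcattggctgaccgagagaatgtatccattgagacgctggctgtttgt

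Both strands were searched for these motifs, for an AP-1 element (TGANTCA), for a palindromic estrogen response element (GGTCA and TGACC with 3 bases between them) and for a TATA box (TATAAA). Dusp1 held 1 cAMP response element, from base -143 to base -136 before the start. Dusp8 held 2, starting at bases -107 and -63. A cAMP response element stood in 1.55% of the 32851 promoter windows of the same length. Dusp5 held 2 adjoining CArG boxes, from base -82 to base -73 and from base -72 to base -63, a motif present in 1.47% of all windows. The letters of the AP-1 element, present in 6.75% of all windows, of the estrogen response element (0.0639%) and of the TATA box (12.4%) were in none of the 8 member windows in the table. The windows of Dusp10 and Dusp14 lie inside the GENCODE M1 loci of these genes. Only 27 of the 250 bases of the Dusp14 window precede an annotated exon. The absence of a motif there describes these windows only. For Dusp4 no promoter sequence was used. These matches describe the windows and are not measured binding sites.

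Reads counted on genes totaled between 24333396 and 33076795 per library, and 3 counts, taken as the smallest amount that can be shown, were worth between 0.0905 and 0.122 CPM (depth-scaled counts, with TMM factors), which covers counting error only. Cyp19a1, the targeted gene, had between 1 and 4 counts in every library, so the deletion could not be checked at this depth. All 7 excitatory neuron markers and all 7 astrocyte markers examined had counts in every library. In whole tissue, fewer cells of a type and less RNA per cell cannot be told apart. Over all genes, the log2 ratio between genotypes ran with the GC content of the transcript (Spearman's rho -0.55 across 13946 genes, which share the same 4 libraries and are not independent), and within FBN-ARO-KO+GCI the ratio of replicate 2 to replicate 1 also ran with it (rho -0.48), while within FLOX+GCI the relation was weak and of the other sign (rho 0.10). The members had a median GC content of 56.0%, against 50.6% for all genes tested. Each member is therefore also given after a correction that takes out the dependence of every library on GC content and transcript length.

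Per transcript length, Dusp8 was the most abundant member, with between 35.4 and 37.2 RPKM (CPM per kilobase of the longest protein-coding transcript) in the 4 libraries. Dusp14 followed with a mean of 24.9 RPKM and Dusp6 with 24.5 RPKM, and these neighbors did not differ beyond their spread, since each was above the other in 2 libraries. Dusp7 had a mean of 14.2 RPKM and Dusp1 of 12.1 RPKM, and the range of Dusp1, from 8.94 to 16.6 RPKM, overlapped those of Dusp7 and of Dusp4 (mean 8.69 RPKM). The remaining order was clear of overlap, with 4.87 RPKM for Dusp5, 2.24 RPKM for Dusp10 and 0.471 RPKM for Dusp2. Summed over the 9 members, the level was 128 and 133 RPKM in FLOX+GCI and 127 and 125 RPKM in FBN-ARO-KO+GCI. Of this sum, the 4 inducible nuclear members held 23.3% and 19.8% in FLOX+GCI, against 20.9% and 17.6% in FBN-ARO-KO+GCI, so the groups overlapped. The share of Dusp6 and Dusp7, the cytoplasmic ERK-selective pair, was 28.2% and 28.7% in FLOX+GCI, against 31.3% and 32.6% in FBN-ARO-KO+GCI, which did not overlap. Within the pair, Dusp6 was higher and Dusp7 lower in both FBN-ARO-KO+GCI libraries. The share of Dusp14 did not overlap in the other direction, with 18.6% and 22.8% in FLOX+GCI against 18.03% and 18.02%, and that of Dusp8 and Dusp10 overlapped. Over all genes tested, the CPM of the groups did not overlap for 25.9% with higher and 25.8% with lower values in FBN-ARO-KO+GCI. The shares are not corrected for GC content and length. The log2 difference of that trend between genotypes was -0.001 for Dusp6 and -0.079 for Dusp14, against -0.18 for Dusp7 and Dusp8 and -0.14 for Dusp1. Its part in the shares was not tested. For single shares of this kind an exact permutation test with 2 libraries against 2 cannot give a two-sided p under 0.333, and none was run.

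**Figure D1:**
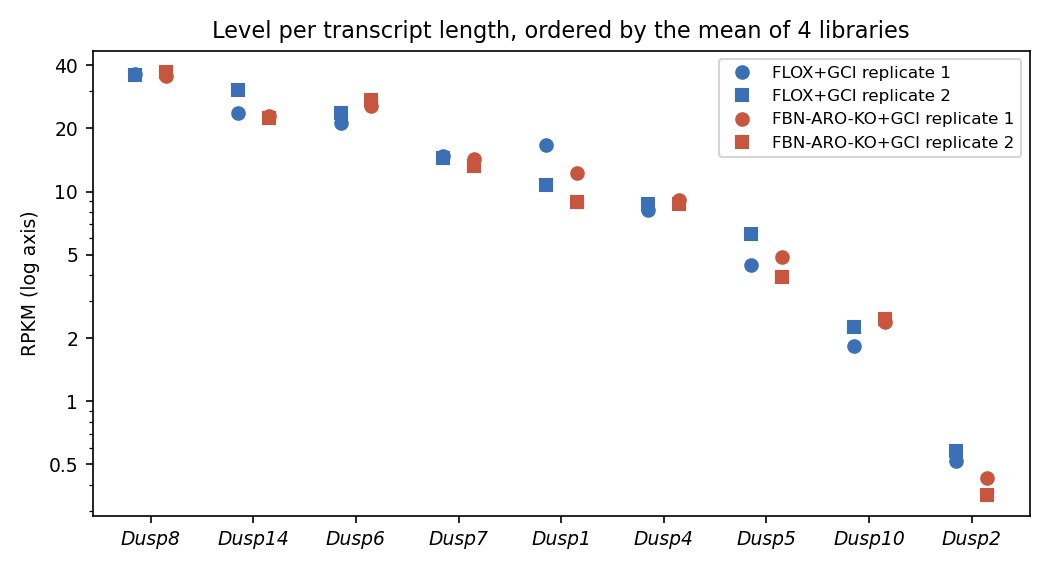
RPKM of each Dusp transcript on a log axis in the 4 libraries, ordered by the mean. Dusp8 lies between 35.4 and 37.2 RPKM and Dusp2 below 0.6 RPKM in every library, and Dusp1 spreads from 8.94 to 16.6 RPKM.

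The question put to the libraries was whether loss of neuronal aromatase changes these transcripts 24 h after GCI. By the quasi-likelihood test in edgeR, with Benjamini-Hochberg adjustment over all genes, 0 of the 9 members passed an adjusted p of 0.05, where 0.0138% of the genes tested were called in either direction. The smallest adjusted p of a member was 0.269. At an unadjusted p under 0.05 there was 1 member, Dusp6, which was higher in FBN-ARO-KO+GCI, against 8.72% of all genes that were higher and 7.82% that were lower at this threshold. DESeq2 called 0 of the 4 members that had an adjusted p after its independent filtering, against 4.92% of all genes with one, and the likelihood ratio test of edgeR called 0 of 9, against 2.02% of all genes. By sign, 4 members had higher and 5 had lower values in FBN-ARO-KO+GCI, with a median log2 fold change of -0.09 against -0.01 for all genes tested. After the GC and length correction 5 were higher and the median was 0.09, against 0.03 for all genes. The CPM of the groups did not overlap for 2 members that were higher (Dusp6 and Dusp10) and 3 that were lower (Dusp2, Dusp7 and Dusp14), while 25.9% of all genes tested did not overlap with higher and 25.8% with lower values in FBN-ARO-KO+GCI.

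**Figure D2:**
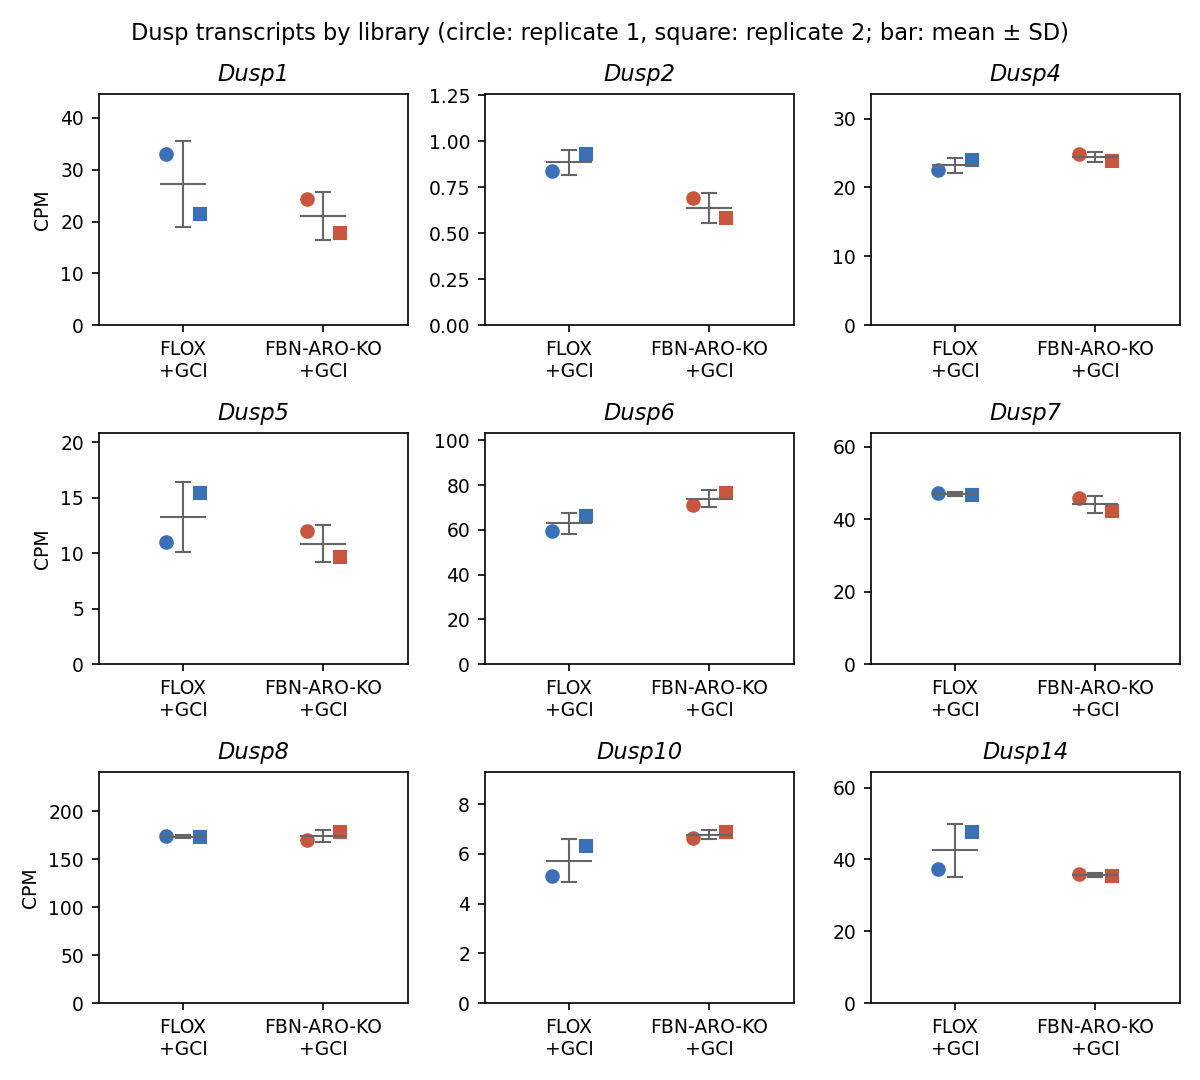
CPM of each Dusp transcript by library, on axes that start at 0, with circles for replicate 1, squares for replicate 2 and bars for the mean ± SD of 2 libraries. Dusp6 stands at 59.7 and 66.2 CPM in FLOX+GCI and at 71.3 and 76.7 CPM in FBN-ARO-KO+GCI, and Dusp1 is higher in replicate 1 than in replicate 2 of both groups.

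Dusp6 encodes the cytoplasmic phosphatase that binds and inactivates ERK. It lies at chr10:98725865-98730122 of mm9 on the plus strand, with 3 exons in its longest transcript. It had 59.7 and 66.2 CPM in FLOX+GCI replicates 1 and 2 and 71.3 and 76.7 CPM in FBN-ARO-KO+GCI (1495 and 1632 against 2363 and 2246 counts). Both FBN-ARO-KO+GCI libraries were above both FLOX+GCI libraries. The means were 62.9 ± 4.63 and 74.0 ± 3.81 CPM (SD, n = 2 each), which gives 0.23 as log2 fold change (standard error, SE, 0.09), or 1.18-fold with a 95% interval from 1.02 to 1.36. The edgeR p was 0.0318 unadjusted and 0.269 adjusted over all genes. The GC content of this transcript, 49.0%, is near the median of all genes, and the log2 fold change was as large after the GC and length correction (0.23, SE 0.08, with an edgeR adjusted p of 0.382). Without FLOX+GCI replicate 1 the uncorrected log2 fold change was 0.16, and without FLOX+GCI replicate 2 it was 0.31. Without FBN-ARO-KO+GCI replicate 1 it was 0.28, and without FBN-ARO-KO+GCI replicate 2 it was 0.18.

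Dusp7, the closest cytoplasmic relative of Dusp6, lies at chr9:106270963-106278055 on the plus strand with 3 exons. It had 47.4 and 46.6 CPM in FLOX+GCI and 45.8 and 42.4 CPM in FBN-ARO-KO+GCI. The groups did not overlap, but the gap between them was under 1 CPM. Its log2 fold change was -0.09 (SE 0.09, with an edgeR adjusted p of 0.601), which the GC and length correction turned to 0.09 and which lay between -0.15 and -0.036 with 1 library left out. The 95% interval reached from 0.816-fold to 1.08-fold. The third canonical enzyme of this kind, Dusp9, is no member and was near the detection floor, with 11 and 7 counts in FLOX+GCI against 17 and 13 in FBN-ARO-KO+GCI.

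Dusp1 encodes the nuclear phosphatase that is transcribed within minutes of a stimulus. It lies at chr17:26642535-26645464 on the minus strand, with 4 exons. It had 33.1 and 21.4 CPM in FLOX+GCI replicates 1 and 2 and 24.3 and 17.8 CPM in FBN-ARO-KO+GCI replicates 1 and 2. The groups overlapped, and replicate 1 was above replicate 2 in each, by 1.55-fold in FLOX+GCI and 1.37-fold in FBN-ARO-KO+GCI. These within-group differences were larger than those of 92.8% and 90.1% of all genes tested. The log2 fold change between genotypes was -0.37 (SE 0.22, with an edgeR adjusted p of 0.420), with a 95% interval from 0.537-fold to 1.11-fold, and -0.24 after the GC and length correction. It depended on the library, with -0.02 without FLOX+GCI replicate 1, -0.65 without FLOX+GCI replicate 2, -0.62 without FBN-ARO-KO+GCI replicate 1 and -0.16 without FBN-ARO-KO+GCI replicate 2.

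The order of the libraries in Dusp1 was compared with 2 lists after its values were seen. Replicate 1 was above replicate 2 in both groups for 10 of the 22 ERK response transcripts tested (45.5%), Fos, Junb and Ier2 among them, and for 2 of the 9 members, Dusp1 and Dusp7, where 21.7% of all genes tested had this order. It also held for 5 of 6 endothelial markers, whose summed level was 244 and 182 CPM in FLOX+GCI and 212 and 154 CPM in FBN-ARO-KO+GCI, the same order of the 4 libraries as for Dusp1. The order was not counted for the other cell type lists. These counts are not corrected for GC content. The ratio of replicate 2 to replicate 1 fell with GC content within FBN-ARO-KO+GCI (rho -0.48), while rho was 0.10 within FLOX+GCI. The median GC content was 55.1% for the ERK response transcripts tested, against 50.6% for all genes tested, and that of Dusp1 was 54.9%. The parts of GC content and of endothelial RNA in the values of Dusp1 were not tested.

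Dusp5, the nuclear ERK-selective member with the paired CArG boxes, lies at chr19:53603599-53616921 on the plus strand with 4 exons. It had 11.0 and 15.5 CPM in FLOX+GCI and 12.01 and 9.66 CPM in FBN-ARO-KO+GCI. The groups overlapped, and FLOX+GCI replicate 2 was the highest library. The log2 fold change was -0.29 (SE 0.20, with an edgeR adjusted p of 0.468), with a 95% interval from 0.597-fold to 1.13-fold. Without FLOX+GCI replicate 2 it was -0.02, and without FLOX+GCI replicate 1 it was -0.51. After the GC and length correction it was -0.12.

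Dusp4, a nuclear phosphatase of ERK and JNK, lies at chr8:35870351-35882948 on the plus strand with 4 exons. It was steady, with 22.5 and 24.0 CPM in FLOX+GCI and 24.9 and 23.9 CPM in FBN-ARO-KO+GCI, and the groups overlapped. Its log2 fold change was 0.07 (SE 0.10, with an edgeR adjusted p of 0.739), and the 95% interval lay between 0.891-fold and 1.24-fold. After the GC and length correction the log2 fold change was 0.22, with an unadjusted edgeR p of 0.0465 and an adjusted p of 0.428, so that Dusp4 joined Dusp6 as the 2 members under an unadjusted 0.05 in that fit, both higher in FBN-ARO-KO+GCI, where 7.95% of all genes were higher and 3.5% lower.

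Dusp2, the fourth nuclear member, is best known from immune cells. It lies at chr2:127161895-127164112 on the plus strand with 4 exons. It had 21 and 23 counts in FLOX+GCI against 23 and 17 in FBN-ARO-KO+GCI, which is 0.838 and 0.933 CPM against 0.694 and 0.580 CPM. The CPM did not overlap, but it rested on few counts, and the log2 fold change of -0.47 had a standard error of 0.37 (edgeR adjusted p of 0.524). With a 95% interval from 0.399-fold to 1.31-fold, Dusp2 was the only one of the 9 members whose interval reached past a 2-fold difference. The correction for GC content, which is 59.3% in this transcript, gave -0.22.

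Dusp8 prefers JNK and p38 and is strongly expressed in brain. It lies at chr7:149265395-149281748 on the minus strand, with 7 exons in its longest transcript. It was the steadiest member between libraries, with 174.5 and 172.8 CPM in FLOX+GCI and 170.2 and 178.8 CPM in FBN-ARO-KO+GCI. The group means were 173.6 ± 1.17 and 174.5 ± 6.02 CPM (SD, n = 2 each). Its log2 fold change was 0.01 (SE 0.07, with an edgeR adjusted p of 0.967), of a sign that turned with library totals in place of TMM factors (-0.03), and the 95% interval lay between 0.898-fold and 1.13-fold. At a GC content of 58.8%, the trend of the libraries over GC content and length came to -0.18 for this transcript, and the corrected log2 fold change was 0.19 (SE 0.08, with an edgeR adjusted p of 0.439).

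Dusp10, the other JNK and p38 phosphatase of the list, lies at chr1:185837181-185899515 on the plus strand with 4 exons and overlaps 1700056E22Rik on the opposite strand, whose reads it could share where counting ignored strand. It had 5.11 and 6.33 CPM in FLOX+GCI and 6.64 and 6.90 CPM in FBN-ARO-KO+GCI. Both FBN-ARO-KO+GCI libraries were higher, the lower of them close to FLOX+GCI replicate 2. This gave a log2 fold change of 0.24 (SE 0.18, with an edgeR adjusted p of 0.498), with a 95% interval from 0.885-fold to 1.58-fold. The correction left it at 0.23, and it was 0.098 without FLOX+GCI replicate 1 and 0.40 without FLOX+GCI replicate 2. Dusp16, which also acts on JNK and p38 and is no member, had 16.8 and 15.1 CPM in FLOX+GCI and 13.8 and 15.7 CPM in FBN-ARO-KO+GCI.

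Dusp14, the atypical member, lies at chr11:83861543-83882763 on the minus strand with 4 exons. It had 37.3 and 47.8 CPM in FLOX+GCI and 36.0 and 35.3 CPM in FBN-ARO-KO+GCI. The groups did not overlap, and FLOX+GCI replicate 2 stood apart from the other 3 libraries. The same library had the highest level of the astrocyte gene Gfap, which was picked after its values were seen. Gfap had 900 CPM there, against 396 CPM in FLOX+GCI replicate 1 and 502 and 560 CPM in FBN-ARO-KO+GCI. The sum of the 7 astrocyte markers, which includes Gfap, did not follow this order. It was 5779 and 5882 CPM in FLOX+GCI against 6007 and 6635 CPM in FBN-ARO-KO+GCI, highest in FBN-ARO-KO+GCI replicate 2. An astrocyte part in the values of Dusp14 was not tested. The log2 fold change of Dusp14 was -0.25 (SE 0.13, with an edgeR adjusted p of 0.351), with a 95% interval from 0.683-fold to 1.03-fold. It was -0.07 without FLOX+GCI replicate 2 and -0.42 without FLOX+GCI replicate 1, and -0.17 after the GC and length correction.

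**Figure D3:**
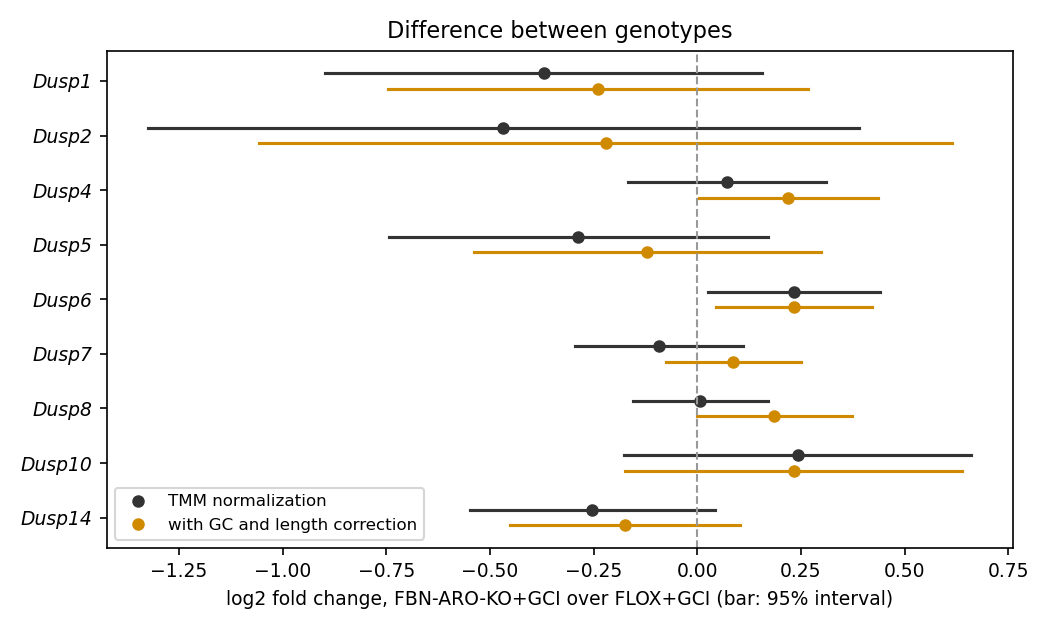
Log2 fold change of each member with its 95% interval, with TMM normalization (black) and with the GC and length correction (orange). The interval of Dusp6 lies above 0 in both fits, while Dusp7 changes side and Dusp4 and Dusp8 move upward by between 0.15 and 0.18.

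**Figure D4:**
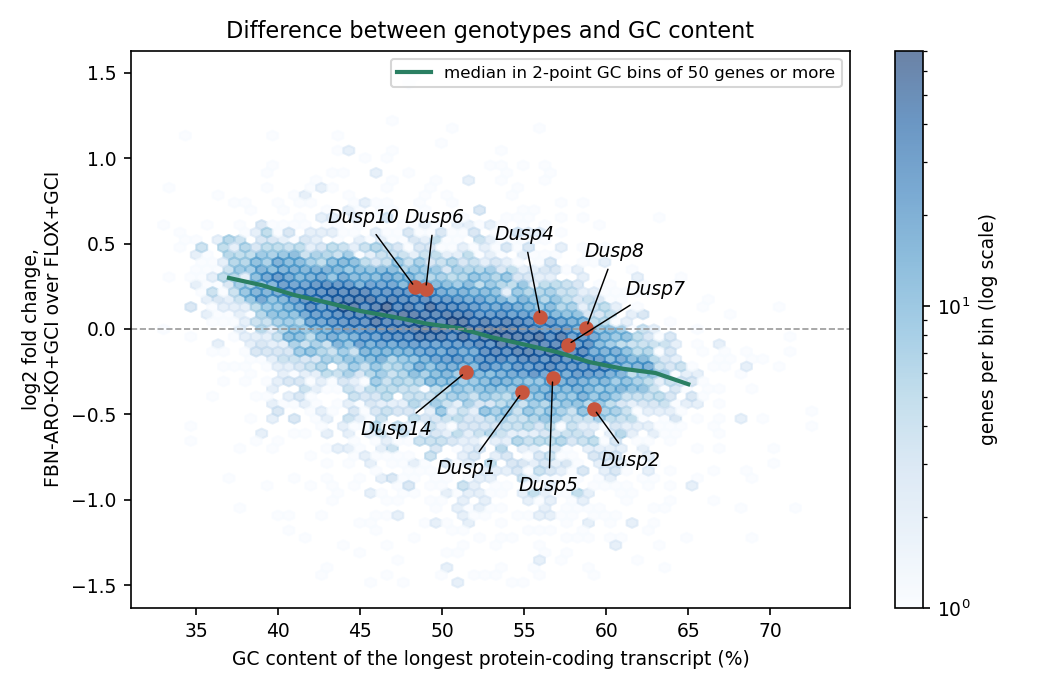
Log2 fold change of 13903 genes against transcript GC content, with the members in red and the median in bins of GC content as a line; 43 genes lie beyond 1.5 on the log2 scale. The line falls with GC content, Dusp6 and Dusp10 lie above it at 49.0% and 48.4% GC, and Dusp1, Dusp2, Dusp5 and Dusp14 lie below it. Dusp4, Dusp7 and Dusp8 had log2 fold changes above 0 after the GC and length correction (0.22, 0.087 and 0.19).

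The rest of the MAP kinase pathway was read from lists of its parts. By the quasi-likelihood test in edgeR, with or without the correction, 0 genes of these lists passed an adjusted p of 0.05, so the counts that follow are at an unadjusted p under 0.05, where the shares over all genes were 8.72% higher and 7.82% lower, or 7.95% and 3.5% with the correction. The other tests called a few of them, Rps6ka4, Spred1 and Junb by each of DESeq2, the likelihood ratio test and the replicate block, Fos by the latter pair, Etv1 by DESeq2 and the block, and Ptpn5 by DESeq2. Of 13 MAP kinases tested, 1 was lower in FBN-ARO-KO+GCI and 0 higher, with a median log2 fold change of -0.02. The lower one was Mapk12, for p38γ, with 91 and 184 counts in FLOX+GCI against 81 and 80 in FBN-ARO-KO+GCI (log2 fold change -1.10, or -0.94 when corrected). Of 7 MAP kinase kinases 1 was lower, Map2k2 (MEK2, log2 fold change -0.29), and of 16 MAP kinase kinase kinases 1 was lower, Map3k10 (a mixed-lineage kinase upstream of JNK, -0.28). After the GC and length correction these became -0.04 for Map2k2 and 0.04 for Map3k10. Among the 7 scaffolds tested, Spag9 had 0.25 and Mapk8ip1 -0.20, which were 0.11 and 0.02 after the correction.

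Among 11 kinases downstream of MAP kinases, 1 was higher and 1 lower at an unadjusted p under 0.05, and 9 did not pass it. The higher and the lower one were the related nuclear kinases MSK1 and MSK2. Rps6ka5 (MSK1) had 21.9 and 19.0 CPM in FLOX+GCI and 27.0 and 27.6 CPM in FBN-ARO-KO+GCI, and Rps6ka4 (MSK2) had 54.2 and 52.3 CPM in FLOX+GCI and 38.2 and 35.9 CPM in FBN-ARO-KO+GCI. For both the groups did not overlap, as for 25.9% of all genes tested with higher and 25.8% with lower values in FBN-ARO-KO+GCI. The log2 fold changes were 0.42 for Rps6ka5 (SE 0.11) and -0.52 for Rps6ka4 (SE 0.09), each with an adjusted edgeR p of 0.238, and 0.30 and -0.28 after the correction.

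Of the other phosphatases, 12 further dual-specificity phosphatases were tested, with 1 higher and 1 lower. Dusp19, an atypical enzyme linked to JNK signaling, had 11.7 and 11.2 CPM in FLOX+GCI and 14.7 and 16.3 CPM in FBN-ARO-KO+GCI (log2 fold change 0.44, or 0.35 when corrected). Dusp26, an atypical neuronal enzyme, had 54.4 and 57.3 CPM against 45.9 and 44.6 CPM (log2 fold change -0.30, or -0.085 when corrected). Ptpn5, for the striatal-enriched tyrosine phosphatase STEP that inactivates ERK and p38 in neurons, had 172.5 and 221.9 CPM in FLOX+GCI and 153.6 and 147.6 CPM in FBN-ARO-KO+GCI. The log2 difference was -0.39 (SE 0.12, with an edgeR adjusted p of 0.245), and -0.19 after the correction.

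The Sprouty and Spred genes encode other feedback inhibitors of ERK signaling. At an unadjusted p under 0.05, 3 of 6 tested genes were higher and 0 lower, against 8.72% and 7.82% of all genes. After the correction 3 were higher too, against 7.95%. Spred1 had 76.5 and 88.2 CPM in FLOX+GCI and 103.6 and 132.6 CPM in FBN-ARO-KO+GCI (log2 fold change 0.52, or 0.31 when corrected). Spred2 had 68.4 and 65.2 CPM against 78.4 and 78.5 CPM, a log2 fold change of 0.23, or 0.24 when corrected. The third was Spry4, with a log2 fold change of 0.27. By sign the other 3 were lower, Spry1 (-0.16), Spry2 (-0.10) and Spred3 (-0.05). The median of the 6 was 0.09, or 0.15 when corrected. Of the 22 ERK response transcripts tested, 2 were higher and 7 lower, with a median log2 fold change of -0.27, against -0.01 for all genes. After the correction 3 were higher and 2 lower and the median was -0.07. The higher ones without the correction were Etv1 (0.46) and Etv5 (0.27), factors of the ETS family, and the lower ones with the smallest p were Junb (-0.76) and Fos (-0.71), subunits of AP-1. With the correction these were 0.31, 0.30, -0.44 and -0.64. No direction is drawn for the list as a whole, since its median depended on this setting.

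**Figure D5:**
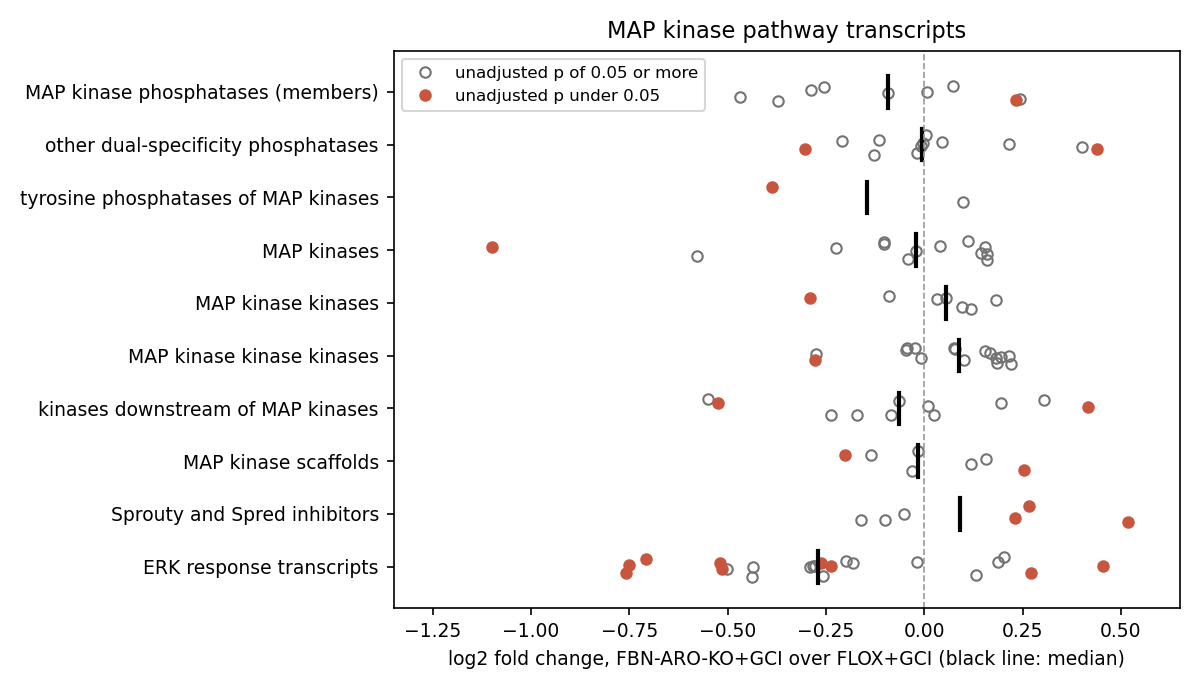
Log2 fold change of every tested gene of the MAP kinase lists, filled where the unadjusted p was under 0.05, with the median as a black line. The members have 1 filled point, Dusp6 at 0.23, and the ERK response transcripts have 2 to the right and 7 to the left of 0.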

How the data were processed

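Single-end reads of 50 nt were aligned to mm9 with TopHat2 2.0.8b and counted per gene symbol with HTSeq, and the authors deposited these raw counts without normalization. Tools are named per the submitters' processing notes. Samples were run in duplicate and their reads combined before alignment. The HTSeq version, strand setting and annotation release are not given in the sources used here. The 5 counters of unassigned reads (between 43.4% and 45.5% of each file's total) were left out.

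From these counts, the genotypes, taken from the sample titles, were tested in edgeR 4.0.16 (R 4.3.3) by quasi-likelihood, with TMM factors, filterByExpr (minimum count 10) and Benjamini-Hochberg adjustment over 14527 genes. The standard error is the log2 fold change over the square root of F, and the 95% interval uses the test's degrees of freedom. The correction fitted natural splines (5 degrees of freedom each) over GC content and length to the log2 CPM of a library relative to the mean of the gene (prior count 2), as an offset. Loci, length and GC content came from GENCODE M1 (NCBIM37, the same assembly as mm9), with a transcript for 20176 of 22609 symbols. The tests were run on simulated counts drawn with trended and with tagwise dispersions. With tagwise dispersions the share of false calls was above the adjusted threshold for every test, so adjusted p-values can be too small. There were 22 false calls beside 155 recovered genes for the quasi-likelihood test and 45 beside 165 for the likelihood ratio test. With trended dispersions it was also above it for the likelihood ratio test (14 false calls beside 163 recovered genes) and the replicate block (10 beside 161). Each simulation given here was a single draw without a GC trend. Trended dispersions were brought in after an earlier tagwise draw, not given here, had more false calls for the quasi-likelihood test.

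The members, lists and alternatives were chosen with earlier results of these data known. Named genes were the members, up to 2 genes per direction of each list with the smallest p under an unadjusted 0.05, Dusp9, Dusp16, Cyp19a1 and the 3 genes with the nearest library profile. Others (Spry4, Ier2, Fosl1, Gfap) were chosen after their values were seen. DESeq2 1.42.0, other normalizations and filters, a likelihood ratio test, the replicate block and leaving out each library were alternatives.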

Additional observations from a re-analysis of the deposited data

How the results depend on the processing

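No member passed an adjusted p of 0.05 under any of the 13 alternatives, and 111 of the 116 member values kept their sign. The exceptions were Dusp7 with the GC and length correction (0.087) and with that correction and the replicate block (0.087), and Dusp8 with library totals only (-0.029) and with 1 library left out (between -0.027 and 0.039, negative without replicate 2 of either group). The alternatives reuse the same 4 libraries, so a kept sign is not independent support. With 1 library left out, Dusp1 lay between -0.65 and -0.02 and Dusp5 between -0.51 and -0.02. The median of the members became 0.087 with the correction, with or without the block. It lay between -0.15 and -0.019 with 1 library left out. Members at an unadjusted p under 0.05 numbered 0 with library totals only (against 16.8% of all genes), 2 with the correction (11.4%), 2 with the replicate block (Dusp1 and Dusp6, 17.5%), 2 with both (Dusp6 and Dusp8, 11.9%), and between 0 and 2 with 1 library left out. Without FLOX+GCI replicate 1 they were Dusp5 and Dusp14 (15.9% of all genes), and without FLOX+GCI replicate 2 Dusp1 and Dusp6 (12.9%). A count of 1 or 2 of the 9 members is near these shares.

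Over all genes, 2 were called in the reported fit, 285 by DESeq2 (202 with higher and 83 with lower values in FBN-ARO-KO+GCI), 294 by the likelihood ratio test (139 and 155), 5 with every gene of at least 1 count and 184 with the replicate block (42 and 142), but 1 with the block and the correction. With 1 library left out the number lay between 0 (without either FBN-ARO-KO+GCI library) and 193 (without FLOX+GCI replicate 1, 52 and 141), and was 127 without FLOX+GCI replicate 2 (33 and 94). Of the MAP kinase lists, 3 genes were called without FLOX+GCI replicate 1 (Ptpn5, Mapk12 and Fosl1) and 5 without FLOX+GCI replicate 2 (Rps6ka4, Spred1, Fos, Junb and Ier2). The lone library of a group is then assumed to vary like the others. The cause of these differences was not tested. The deviations of same-numbered libraries correlated at 0.13 across genes, and nothing says that the numbers mark a shared animal or day. The replicate block gave Dusp1 a log2 fold change of -0.36 (edgeR p of 0.0122 unadjusted and 0.160 adjusted). With 17 to 23 counts per library, depth limits Dusp2 most.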

Other observations

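Over the 4 libraries, the mean profile of the 9 members, in log2 CPM relative to each gene's own mean, was -0.0015 and 0.095 in FLOX+GCI, against 0.0068 and -0.10 in FBN-ARO-KO+GCI. The tested genes with the nearest profile were Bet1l, Carkd and G6pdx, at a root mean square distance of between 0.0013 and 0.0065 on the log2 scale over 4 libraries. The members themselves lay farther from this mean, at between 0.042 (Dusp7) and 0.31 (Dusp1), so it does not stand for the profile of a single member. With so few points, a near profile is a description only.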
